A study of Mus musculus with 2 samples.

Results

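Mitosis genes are 44 genes of the last stage of the cell cycle, namely mitotic cyclins and kinases, checkpoint and kinetochore genes, kinesins, spindle and cytokinesis genes, condensins and the transcription factor Foxm1. They were chosen by gene symbol and not by a cut on their values, though with earlier results of these data known. All 44 were found among the 24421 genes listed in each table. The study sequenced polyadenylated RNA from mouse Th1 cells, which are CD4 T helper cells that make IFNγ, with 1 library from Chi3l1+/+ cells and 1 from Chi3l1-/- cells. Both were on a C57BL/6J background, from mice 6 to 8 weeks old. Naïve CD4 T cells, taken as CD25-negative and CD62L-positive CD4 cells, were stimulated through CD3 and CD28 with antibodies bound to the plate, in the presence of IL-12, IL-2 and an antibody to IL-4. Chi3l1-/- cells lack both copies of chitinase-3-like-1 in the whole animal. The number of mice behind a library and the culture time of the sequenced cells are not given in the sources used here.

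A cell enters mitosis when Cdk1 is joined by cyclin A or B and is freed of its inhibitory phosphates by Cdc25 phosphatases. Polo-like and Aurora kinases then build the spindle, the checkpoint holds anaphase until every kinetochore is attached, and the anaphase-promoting complex destroys cyclin B and securin. Transcripts of these genes build up in late S phase and G2 under the B-Myb-FoxM1 complexes. They drop in resting cells, where the DREAM complex represses them. Activated T cells divide quickly, so these genes are strongly expressed in T cell cultures.

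The targeted gene did not check the labels. Chi3l1, listed as Chil1, had 1 read in the library labelled WT Th1 and 103 reads in the library labelled Chi3l1 KO Th1, which goes against the labels. Values per gene do not show from which exons the reads came. The libraries are therefore called WT-labelled and KO-labelled below, and every direction rests on these labels. They held 70565831 and 62862669 reads rebuilt from the values. All 9 T helper cell markers listed were present in both libraries. Of other cells, B cell markers were above 0 for 6 of 6 genes in both libraries, with 985 reads in the WT-labelled and 1858 in the KO-labelled library. CD8 T cell markers had 837 and 833 reads, monocyte or macrophage markers 554 and 482, dendritic cell markers 32 and 121, neutrophil markers 84 and 5, and NK cell markers 28 and 56. Among the defining genes at 0 in both libraries were Adgre1 of macrophages and Siglech and Clec9a of dendritic cells. The T helper markers had 300372 and 284269 reads. Among them, Ifng had 3479 and 8715 reads and Tbx21, the Th1 transcription factor, had 16657 and 13876. Whether the other cells had a part in the values of the mitosis genes was not tested.

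The upstream sequences of these genes share short elements of cell cycle genes. The cell cycle genes homology region, TTTGAA, and the CCAAT box, CCAAT, were searched on both strands in the 250 bases before the start of each gene in the RefSeq promoters (GRCm38.p6). Neither set of letters contains the other. The table held 39 promoters of 36 mitosis genes. The homology region was in 41.0% of these promoters, compared with 16.0% of all 32851 promoters of the same length. The CCAAT box was in 74.4%, compared with 33.8% of all promoters, and both were in 38.5%, compared with 5.55%. This is a count of letters, and a match is not evidence of a bound factor. Of the genes with both motifs, 5 had no annotated exon in the window, and their sequences are shown because they carry the shared elements. They lie at chr9:70421555-70421804 on the minus strand for Ccnb2, chr19:37376132-37376381 on the plus strand for Kif11, chr7:135716380-135716629 on the minus strand for Mki67, chr4:52438971-52439220 on the plus strand for Smc2 and chr11:99024190-99024439 on the minus strand for Top2a. Each runs 5′ to 3′ on the strand of its gene, and capitals mark either motif on either strand.
Ccnb2: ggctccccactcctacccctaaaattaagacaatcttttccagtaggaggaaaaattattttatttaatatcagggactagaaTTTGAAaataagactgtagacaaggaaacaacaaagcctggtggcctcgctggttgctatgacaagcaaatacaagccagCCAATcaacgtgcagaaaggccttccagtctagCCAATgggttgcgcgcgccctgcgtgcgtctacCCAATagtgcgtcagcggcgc
Kif11: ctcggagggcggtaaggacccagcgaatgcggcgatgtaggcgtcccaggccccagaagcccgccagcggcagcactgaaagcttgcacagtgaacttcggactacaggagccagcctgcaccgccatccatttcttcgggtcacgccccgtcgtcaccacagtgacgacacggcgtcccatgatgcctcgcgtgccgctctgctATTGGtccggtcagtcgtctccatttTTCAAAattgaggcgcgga
Mki67: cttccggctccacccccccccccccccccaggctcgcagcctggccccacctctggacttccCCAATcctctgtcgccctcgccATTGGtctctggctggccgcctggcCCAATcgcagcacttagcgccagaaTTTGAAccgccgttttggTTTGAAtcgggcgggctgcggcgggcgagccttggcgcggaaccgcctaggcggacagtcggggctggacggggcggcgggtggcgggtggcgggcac
Smc2: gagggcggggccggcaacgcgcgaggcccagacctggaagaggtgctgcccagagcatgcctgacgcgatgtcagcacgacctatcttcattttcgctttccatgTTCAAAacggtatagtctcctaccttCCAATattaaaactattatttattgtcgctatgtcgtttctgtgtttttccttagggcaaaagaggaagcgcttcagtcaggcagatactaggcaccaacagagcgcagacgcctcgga
Top2a: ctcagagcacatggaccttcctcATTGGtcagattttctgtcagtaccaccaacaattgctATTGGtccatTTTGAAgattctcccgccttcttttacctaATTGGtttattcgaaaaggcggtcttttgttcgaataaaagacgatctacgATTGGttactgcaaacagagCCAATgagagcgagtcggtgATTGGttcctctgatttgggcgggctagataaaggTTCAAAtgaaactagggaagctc
In Kif11 the homology region began 19 bases before the RefSeq promoter start and the CCAAT box 45 bases before it. The Kif11 gene is annotated in GENCODE from chr19:37376403, downstream of that start. The bases after the start were found in a GENCODE transcript of the gene for Top2a, but not for Ccnb2, Kif11, Mki67 or Smc2. Top2a held 6 CCAAT boxes and 2 homology regions. The 13 genes with both motifs had differences from -0.22 to 0.53, with a median of 0.071 and 8 genes higher in the KO-labelled library. The 9 genes with neither had differences from -0.14 to 0.56 and a median of 0.068, with 6 genes higher. The median was 0.16 for the 13 genes with the CCAAT box only and -0.033 for the 8 without a promoter entry. The ranges of all these classes overlapped.

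All mitosis genes were expressed in both libraries. The deposited values are log2 of a normalized count plus 1, and their median over the 44 genes was 12.37 in the WT-labelled and 12.40 in the KO-labelled library. The fewest reads were 195 for Nuf2 in the WT-labelled library and the most were 76090 for Cenpa in the KO-labelled library. Between genes, levels were compared as normalized counts per kilobase of the principal transcript. On this scale Cenpa, the histone H3 variant that marks centromeres, was highest, with 41335 in the WT-labelled and 50294 in the KO-labelled library. Ube2c, the ubiquitin-conjugating enzyme of the anaphase-promoting complex, followed with 23532 and 20148. Tpx2, Birc5, Aurkb and Cdc20 came next in the same order in both libraries, from 9087 to 6815 in the WT-labelled library. The lowest 3 genes were also the same, with Nuf2 at 91.5 and 116, Cenpf at 75.7 and 60.8 and Kif20b at 43.8 and 45.1. Of the 10 highest genes in one library, 8 were among the 10 highest of the other.

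**Figure D1:**
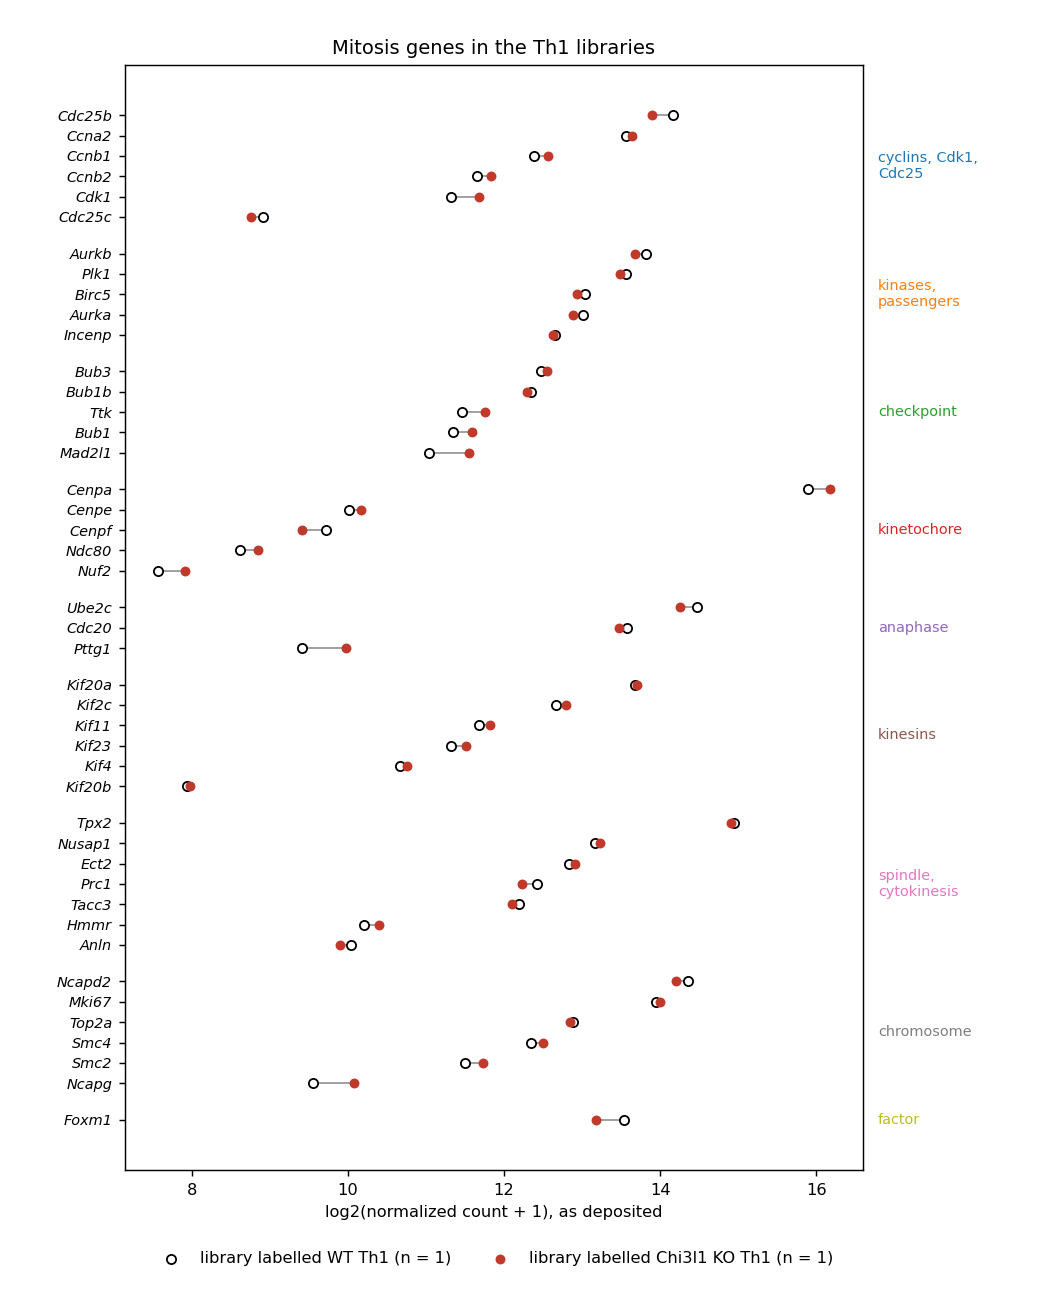
Deposited log2 values of the 44 mitosis genes, by role and then by level. Open points are the library labelled WT Th1 and filled points the library labelled Chi3l1 KO Th1 (n = 1 each, no error bars), and the points of a gene lie close together compared with the range between genes.

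The mitosis genes differed little between the libraries. No mitosis gene was 2-fold higher or lower in the KO-labelled library, and none reached 1.5-fold as deposited. Of all genes listed, 4.7% were at or past 2-fold up and 5.81% at or past 2-fold down. Among the 9298 genes in the level range of the mitosis genes, these shares were 0.678% and 0.936%, so a count of 0 among 44 is near the background. At 1.5-fold, the shares were 9.6% up and 11.4% down of all genes listed, and 4.8% and 6.82% in the level range. KO minus WT on the log2 scale ran from -0.36 for Foxm1 to 0.56 for Pttg1, with a median of 0.0695. It was positive for 26 genes and negative for 18, compared with 49.4% and 50.5% of the genes in the same level range, whose median was -0.0055. Of all genes listed, 31.7% were above 0 and 34.4% below, the rest being equal. The middle 50% of the mitosis genes spanned 0.29, and that of the genes in the level range 0.48. With 1 library of each genotype, there is no replicate check, no test between genotypes and no measure of the spread between cultures. In bulk RNA, fewer dividing cells and less RNA per dividing cell cannot be told apart.

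The size of the differences depended on the scale. Scaling both libraries to their total count moved the median of the genes in the level range to 0.16 and that of the mitosis genes to 0.24, with 39 of 44 higher, compared with 66.9% of the genes in the level range. On this scale Pttg1, Ncapg and Mad2l1 were past 1.5-fold up, as were 11.6% of the genes in the level range, and these 3 were also past it when scaled to Actb. Relative to genes of the level range, the difference of the medians was 0.075 both as deposited and after this scaling. As a share of all normalized counts, the 44 genes held 0.528% in the WT-labelled library (95% exact binomial interval 0.527 to 0.530) and 0.602% in the KO-labelled library (0.600 to 0.604). The summed normalized counts of the 44 genes differed by 0.020 on the log2 scale (0.014 to 0.027). These intervals, and those of single genes below, hold counting error only. For all genes in the level range, the summed counts differed by -0.10. Cenpa alone held 62472 of 372764 mitosis gene reads in the WT-labelled and 76090 of 378456 in the KO-labelled library. The sum of the 44 genes therefore depends strongly on this gene, and a sum without Cenpa was not computed.

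**Figure D2:**
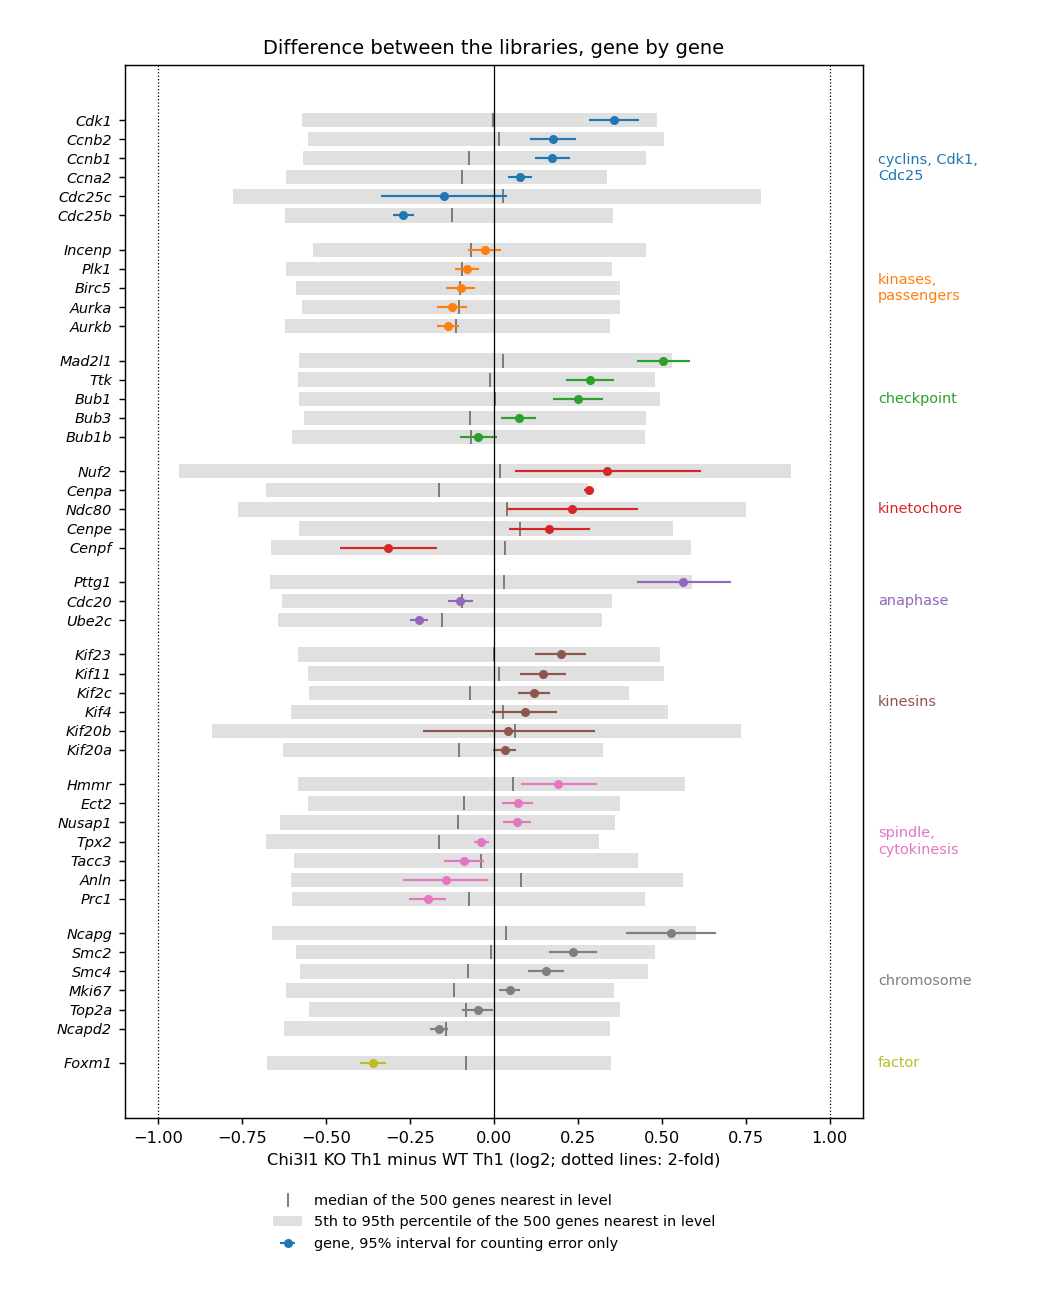
KO minus WT (log2) of each mitosis gene by role, with its 95% exact binomial interval for counting error (lines), over the 5th to 95th percentile (bars) and the median (ticks) of its 500 neighbours in mean expression. All points lie within 2-fold, and Cenpa alone lies past the end of its bar.

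Beside genes of similar expression, 43 of the 44 genes lay between the 5th and 95th percentile of their 500 neighbours, the genes closest in mean log2 value. Cenpa was above the 95th percentile, which 5.04% of the genes in the level range were, and no mitosis gene was below the 5th, which 5.12% were. The median of the neighbours was itself related to level and ran from -0.17 around Cenpa to 0.082 around Anln. Against their own neighbours, 31 mitosis genes were above the neighbours' median and 13 were below, and the median of these differences was 0.13. Once the trend with GC content described below had been removed from all genes, 23 were above and 21 below, with a median of 0.0062, and no gene was past either percentile. Counting error was small by comparison. The interval of 23 genes lay above 0, that of 15 genes below 0, and that of 6 genes held 0.

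The differences followed the GC content of the transcripts. Across the 44 genes, KO minus WT had a Spearman rho of -0.54 with the GC content of the longest transcript. The same rho was -0.53 across the 8579 genes that reached 8 on the log2 scale in both libraries. These are relations across genes of the same pair of libraries, and genes are not independent. The 22 mitosis genes of lower GC content had a median difference of 0.16, with 17 higher in the KO-labelled library. The 22 of higher GC content had a median of -0.042, with 9 higher. The mitosis genes had a median GC content of 46.2%, compared with 49.9% for genes in the level range. With the median trend of all well-expressed genes subtracted, the median of the mitosis genes was -0.030, with 19 genes higher and 25 lower, and the sign of 15 genes was turned. The difference was also lower for genes of higher level (Spearman rho -0.44, 44 genes) and had a weaker relation to transcript length (-0.14).

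**Figure D3:**
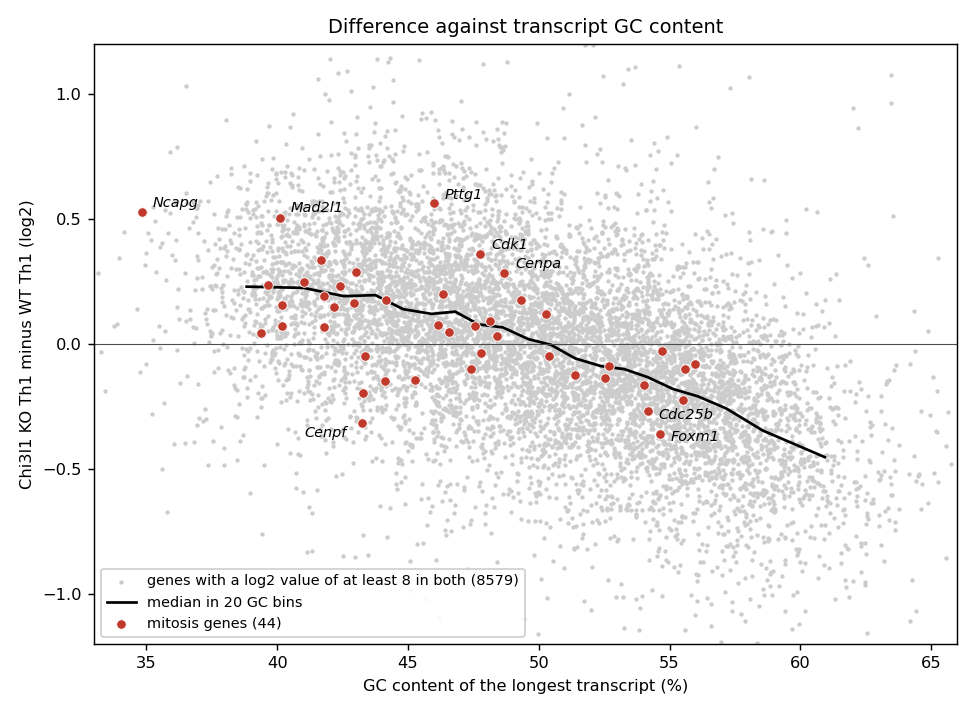
KO minus WT (log2) against the GC content of the longest transcript, for genes that reached 8 on the log2 scale in both libraries (grey, 31 genes lie beyond the axis), their median in 20 GC bins (line) and the 44 mitosis genes (red). Most mitosis genes follow the line, which runs from 0.23 in the lowest bin to -0.45 in the highest.

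Among the cyclins, Cdk1 and the Cdc25 phosphatases, 4 of 6 genes were higher in the KO-labelled library. Cdk1 (chr10:69335146-69352938), the kinase that drives entry into mitosis, was 11.32 in the WT-labelled and 11.68 in the KO-labelled library. Its difference of 0.36 had an interval from 0.28 to 0.43. It was 0.28 with the GC trend removed and was positive under every alternative. The cyclins that bind Cdk1 stood closer to 0, with Ccnb2 at 0.18, Ccnb1 at 0.17 and Ccna2 at 0.077. Of these, Ccnb2 was positive under every alternative, Ccna2 was below 0 once the GC trend was removed, and Ccnb1 was below 0 with the GC content of the principal transcript. Ccnb1 had near-identical copies elsewhere in the genome, Gm12856, Gm8416, Ccnb1-ps and Gm7483, none of them among the genes listed. The longest match was 98.1% identical over 1294 bases, so the reads of Ccnb1 are uncertain where multiple alignments were counted. Cdc25b, which activates Cdk1 at the centrosome, was lowest of the group, at 14.16 and 13.89. Its difference of -0.27 had an interval from -0.30 to -0.24, was -0.14 with the GC trend removed, and turned positive when that removal was combined with scaling to the total count. Cdc25c had -0.15, from 495 and 447 reads, with an interval that held 0. With the GC trend removed, Cdc25c was -0.33. Exons on the other strand cover 12.7% of the Cdc25c exons (Gm3550) and 12.5% of the Ccna2 exons (Exosc9).

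The mitotic kinases and chromosomal passengers were close together as deposited. All 5 genes were lower in the KO-labelled library as deposited, and all 5 were higher after scaling to the total count, while removal of the GC trend left 2 higher and 3 lower. Aurkb, the kinase of the passenger complex that corrects wrong attachments, was lowest. It was 13.82 and 13.68, a difference of -0.14 with an interval from -0.17 to -0.10. Aurka, the Aurora kinase of the spindle poles, had -0.13, Birc5, which encodes survivin, had -0.099 and Plk1, polo-like kinase 1, had -0.080. Incenp, the scaffold of the passenger complex, was closest to 0, with 12.66 and 12.63, a difference of -0.028 and an interval from -0.077 to 0.021. Together with Cdca8, which encodes borealin, the complex spanned a range of 0.12 between its members as deposited. With the GC trend removed, the 5 genes of the group ran from -0.19 to 0.13.

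Of the spindle checkpoint genes, 4 of 5 were higher in the KO-labelled library, 5 of 5 after scaling to the total count and 3 of 5 with the GC trend removed. Mad2l1 (chr6:66535390-66547220), which encodes the checkpoint protein that closes around Cdc20, was highest of the group. It was 11.04 in the WT-labelled and 11.55 in the KO-labelled library, from 2176 and 3091 reads. The difference was 0.505 (interval 0.43 to 0.58), or 0.28 with the GC trend removed. A copy of Mad2l1 elsewhere in the genome is 95.4% identical over 454 bases and has no row of its own in the tables, so its reads are uncertain. Ttk, the kinase that starts the checkpoint signal, had a difference of 0.29 and Bub1, the kinase that docks on kinetochores, had 0.25. Both of these were positive under every alternative. Bub3, the binding partner of Bub1 and BubR1, had 0.073. Bub1b, the BubR1 subunit of the mitotic checkpoint complex, was lowest, at 12.34 and 12.30, with a difference of -0.047 and an interval from -0.10 to 0.0084. The 4 subunits of the mitotic checkpoint complex, Mad2l1, Bub1b, Bub3 and Cdc20, thus ran from -0.10 to 0.505.

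Of the centromere and kinetochore genes, 4 of 5 were higher in the KO-labelled library. Nuf2, a subunit of the NDC80 complex that grips microtubules, was highest, at 7.57 and 7.91. Its difference of 0.34 rested on 195 and 247 reads, and its interval ran from 0.063 to 0.62. Its partner Ndc80 had 0.23, and the other subunits of the complex differed in both directions, with Spc25 at 0.36 and Spc24 at -0.42. Cenpa (chr5:30666777-30674830) was 15.89 and 16.17, a difference of 0.28 with an interval from 0.27 to 0.30 and 0.22 with the GC trend removed. At its level the 95th percentile of the neighbours was 0.28 as well, and Cenpa lay just past it. Cenpe, the kinetochore motor, had 0.16 as deposited and was below 0 with the GC trend removed. Cenpf (chr1:189640606-189688086), a large protein of the outer kinetochore, was lowest, at 9.72 and 9.40 from 868 and 699 reads. Its difference of -0.31 had an interval from -0.46 to -0.17, became -0.51 with the GC trend removed, and was negative under every alternative.

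Of the 3 genes of anaphase, 1 was higher and 2 lower in the KO-labelled library as deposited. Pttg1 (chr11:43420250-43426251), which encodes securin, the inhibitor of separase, had the highest difference of all 44 genes. It was 9.42 in the WT-labelled and 9.98 in the KO-labelled library, from 703 and 1041 reads, which is 1.48-fold. The difference was 0.56 (interval 0.43 to 0.70), or 0.44 with the GC trend removed. Cdc20, which activates the anaphase-promoting complex, had -0.10 as deposited and 0.095 with the GC trend removed. Ube2c was lowest, at 14.47 and 14.25, with a difference of -0.22 and an interval from -0.25 to -0.20. It was -0.032 with the GC trend removed, but -0.23 with the GC content of the principal transcript. Exons of Tnnc2 on the other strand cover 22.8% of the Ube2c exons. The setting for strand in the counting is not given in the sources used here.

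All 6 mitotic kinesins were higher in the KO-labelled library as deposited, but the differences were small and 3 of 6 remained above 0 with the GC trend removed. Kif23, the motor of centralspindlin at the midzone, was highest, at 11.31 and 11.51, with a difference of 0.20 and an interval from 0.12 to 0.27. Kif11, which pushes the spindle poles apart, had 0.15, Kif2c, which takes microtubules apart at centromeres, had 0.12 and Kif4, a motor of chromosome arms, had 0.092. Kif20b had 0.042 on 251 and 259 reads. Kif20a, which carries the passenger complex to the midzone, was lowest, at 13.67 and 13.71, with 0.032 and an interval from -0.0024 to 0.066. The intervals of Kif4, Kif20a and Kif20b held 0. Exons of Cdc23 on the other strand cover 29.3% of the Kif20a exons, and those of Pdzd11 cover 15.1% of the Kif4 exons.

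Of the 7 spindle assembly and cytokinesis genes, 3 were higher and 4 lower in the KO-labelled library, but 6 were higher after scaling to the total count and 1 with the GC trend removed. With the GC content of the principal transcript, all 7 were lower. Hmmr, a spindle protein that binds microtubules, was highest, at 10.20 and 10.39, a difference of 0.19 with an interval from 0.081 to 0.31. With the GC trend removed it was -0.016. Prc1 (chr7:80294450-80316259), which bundles antiparallel microtubules in the midzone, was lowest, at 12.42 and 12.22 from 5660 and 4939 reads. Its difference of -0.20 had an interval from -0.25 to -0.14, became -0.39 with the GC trend removed and was negative under every alternative. Exons of Rccd1 on the other strand cover 11.1% of the Prc1 exons. Anln, the anillin scaffold of the contractile ring, had -0.14, and Tacc3, which stabilizes microtubules of the spindle, had -0.089. Tpx2, the activator of Aurora A, had -0.038. Ect2, which switches on RhoA at the division plane, had 0.071 and Nusap1, a microtubule-binding protein, had 0.068.

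Among the genes of chromosome condensation, 4 of 6 were higher in the KO-labelled library, 6 of 6 after scaling to the total count and 2 of 6 with the GC trend removed. Ncapg (chr5:45669919-45700546), a subunit of condensin I, was highest, at 9.56 and 10.08 from 775 and 1118 reads. Its difference of 0.53 had an interval from 0.39 to 0.66. Ncapg had the lowest GC content of the 44 genes, 34.8%, and its difference was 0.30 with the GC trend removed. Exons of Lcorl on the other strand cover 13.4% of its exons. Ncapd2, another subunit of the same complex, was lowest, at 14.36 and 14.20, with -0.16, an interval from -0.19 to -0.14 and -0.036 with the GC trend removed. The shared condensin ATPases Smc2 and Smc4 had 0.24 and 0.16. The subunits of condensin I, with Ncaph at 0.084, therefore ran from -0.16 to 0.53 as deposited. Top2a, which untangles sister DNA, had -0.048 and Mki67, the proliferation marker Ki-67, had 0.047.

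Foxm1 (chr6:128362967-128376146), the transcription factor that acts on many of these genes in G2, was lowest of all 44. It was 13.53 in the WT-labelled and 13.17 in the KO-labelled library, from 12219 and 9523 reads. The difference was -0.36 (interval -0.40 to -0.32). It was -0.21 with the GC trend removed, -0.19 after scaling to the total count and -0.048 with both.

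Across the 9 alternatives of scaling, correction and filtering, 15 of the 44 genes had the same sign in each one that gave them a value. Nuf2, one of the 15, was below the filter on low values and had no value there. The 12 that were higher in the KO-labelled library were Ccnb2, Cdk1, Bub1, Mad2l1, Ttk, Cenpa, Ndc80, Nuf2, Pttg1, Kif23, Kif2c and Ncapg, and the 3 that were lower were Cenpf, Prc1 and Foxm1. These are signs of a single pair of libraries and not a measure of the spread between cultures. Median-ratio scaling, the pseudocount and the filter on low values turned no sign among the mitosis genes. The share of all genes that keep their sign in the same way was not computed, so 15 of 44 has no background beside it.

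**Figure D4:**
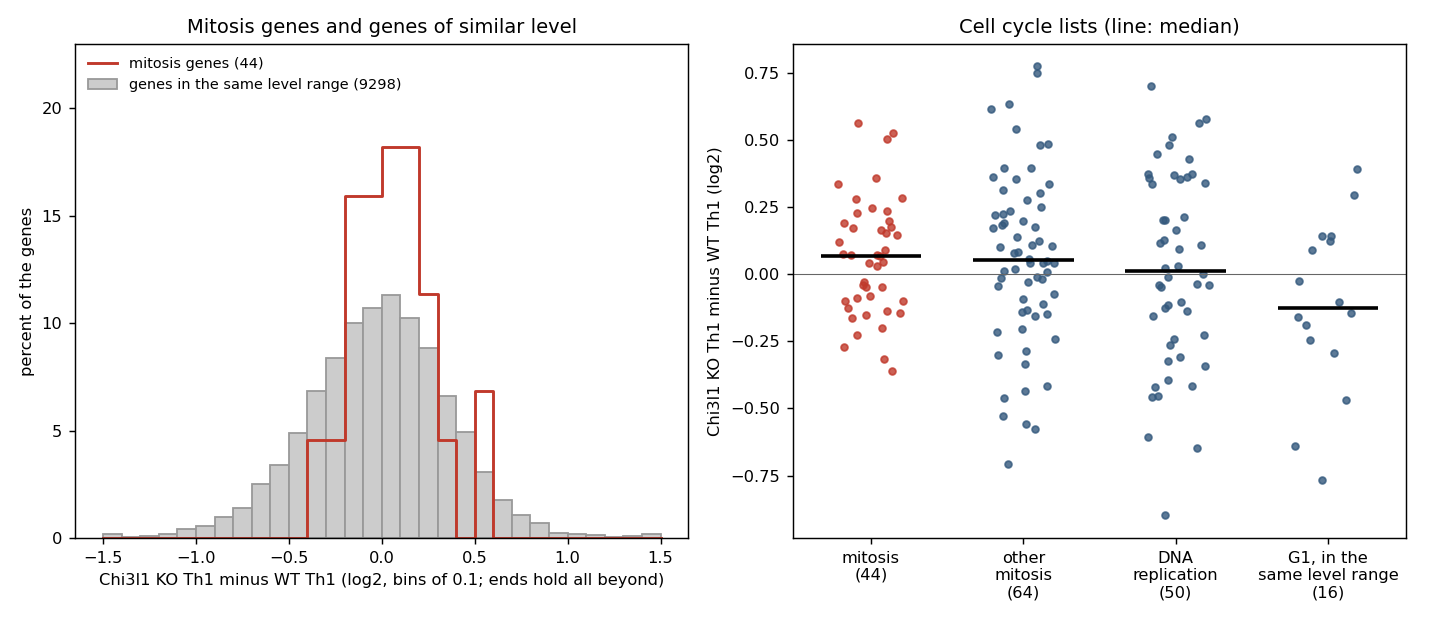
Left, percent of the 44 mitosis genes (line) and of the 9298 genes in the same level range (bars) by KO minus WT (log2, bins of 0.1). Right, KO minus WT of the genes in 4 cell cycle lists with the medians of the genes drawn (lines). Of the 21 G1 genes, the 16 in the level range of the mitosis genes are drawn, and among the points shown the mitosis genes have the narrowest range.

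Of 64 other mitosis genes, 39 were higher and 25 lower in the KO-labelled library, with a median of 0.055 and of -0.0029 with the GC trend removed. Their summed normalized counts differed by -0.12 on the log2 scale (-0.12 to -0.11). This is near the -0.10 of all genes in the level range, and the 44 had 0.020, which depends strongly on Cenpa. The sum of the 64 in turn depends strongly on Ncaph2, at -0.21 from 64496 and 55701 reads. None of the 64 was at or past 2-fold. The 5 at or past 1.5-fold, named after their values were seen, were the centromere genes Cenpk at 0.78, Cenph at 0.63 and Cenpm at -0.71, the spindle pole gene Aspm at 0.75 and Oip5, which helps load Cenpa, at 0.62. Of these 5, 4 were up and 1 was down. With the GC trend removed, the 59 genes with a GC value, these 5 among them, ran from -0.503 to 0.584. That is short of 1.5-fold, which is 0.585 on the log2 scale. In the level range of the 44 genes, 4.8% were at or past 1.5-fold up and 6.82% down. Of all genes listed, these shares were 9.6% and 11.4%. Cenph rested on 53 and 83 reads. Nusap1 and Oip5 lie on opposite strands with overlapping exons. Cenpm had the lowest value of the 64 and came from 9139 and 5604 reads.

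Genes of the earlier stages varied more from gene to gene. The middle 50% of 50 DNA replication genes spanned 0.59, compared with 0.29 for the mitosis genes, and 26 were higher and 24 lower, with a median of 0.013. Mcm6, a subunit of the replicative helicase, was lowest at 13.91 in the WT-labelled and 13.01 in the KO-labelled library, a difference of -0.90 with an interval from -0.94 to -0.86. Tipin, of the fork protection complex, was highest, at 8.42 and 9.12. Of 21 G1 genes, 7 were higher and 13 lower, with a median of -0.14. Among those with a value of at least 4 in either library, Cdkn1a, which encodes the Cdk inhibitor p21, was highest, at 13.54 and 13.93. Cdkn1c, which encodes p57, was lowest, at 4.96 and 2.95, from 31 and 7 reads. Whether the lists differ from each other was not tested.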

How the data were processed

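RNA of 2 samples, 1 per genotype (n = 1), was analysed. Per the labels and the paper, the authors made libraries with a SENSE mRNA-Seq kit, mapped paired reads with TopHat, counted unique and multiple alignments and used edgeR, and the submitters' processing notes name mm10. The annotation and the strand setting of the counting are not given in the sources used here. The deposited values were read from their steps as log2 of a normalized count plus 1: low values were whole multiples of 0.970 in the WT-labelled and 0.969 in the KO-labelled table within 0.2 of a read for 100% of 2092 and 1963 values. Reads were rebuilt with these steps.

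The difference is the KO-labelled minus the WT-labelled value. With 1 library each, no test between genotypes was made. Exact binomial (Clopper-Pearson) 95% intervals of the read ratio cover counting error only. Each gene was set beside the 500 genes nearest in mean log2 value. The GC trend was the median difference in 20 bins of GC content (longest GENCODE M21 transcript) over genes that reached 8 on the log2 scale in both libraries, interpolated and subtracted, and 96.0% of symbols that reached 1 in either library had a transcript. Levels per kilobase used the principal transcript. Promoters were from RefSeq (GRCm38.p6). Near-identical copies were found with blastn 2.17.0 (at least 95% over 200 bases), and the rest was computed with Python 3.11.15, numpy 2.4.6, pandas 2.3.3 and scipy 1.17.1 and tested on simulated data. Alternatives were other scalings, a pseudocount of 0.1, a filter on low values, thresholds of 1.5-fold and 3-fold, and 3 removals of the GC trend.

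All mitosis genes were named by role, with the highest and lowest of each role in full. The members and lists were chosen with earlier results of these data known.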

Additional observations from a re-analysis of the deposited data

How the results depend on the processing

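The count of mitosis genes at or past 2-fold was 0 in both directions under every scaling, correction and filter, and it was 0 at 1.5-fold and 3-fold on the deposited scale. At 1.5-fold, 3 genes were higher with scaling to the total count and 3 with Actb, and 1 (Pttg1) with the GC trend removed and scaling to the total count. Their median difference of 0.0695 was unchanged with a pseudocount of 0.1 and among the 42 genes that reached 8 in both libraries. It was 0.080 with median-ratio scaling, 0.24 with scaling to the total count, 0.15 with quantile normalization and 0.19 with scaling to Actb. It was -0.030 with the GC trend removed, -0.066 with the GC content of the principal transcript, and 0.13 with the GC trend removed and scaling to the total count. The last pair were chosen after seeing the data. The number of mitosis genes lower in the KO-labelled library, 18 as deposited, was 5 with scaling to the total count, 10 with Actb, 28 with the principal transcript, where 16 were higher, and 8 with the GC trend removed and scaling to the total count. The median of the other mitosis genes, 0.055 as deposited, was 0.066 with median-ratio scaling, 0.22 with the total count, 0.17 with Actb, -0.0029 and -0.0027 with the GC trend of the longest and the principal transcript removed, and 0.15 with the GC trend removed and scaling to the total count. Of the values of single genes under the alternatives, 208 stayed within their counting interval and 186 moved beyond it. The total count differed from the deposited scale by 0.17 on the log2 scale, and Rn45s, a ribosomal RNA gene, held 2.83% of normalized counts in the WT-labelled and 1% in the KO-labelled library, a part in this shift that was not tested. No paired analysis was possible because the labels give no replicate numbers and each genotype has 1 library. Leaving out a replicate was not possible either. Depth limits the genes of few reads, such as Nuf2 and Kif20b, but not the spread between cultures, which these libraries do not show.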
